A study of Mus musculus with 35 samples.

Results

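Cytoplasmic poly(A) RNA of mouse N2a cells was compared between Chtop knockdown and control in 7 of the 35 libraries of the series, chosen by condition and fraction with no rescue library. The knockdown group held 4 libraries, 2 of the mEx5 line and 2 of the pEx5 line, from cells transfected with 1 Chtop siRNA product. The control group held 3, 2 of the mEx5 line and 1 of the pEx5 line, from cells that received a non-targeting siRNA pool. N2a is a mouse neuroblastoma line. Both lines derive from N2a Flp-In rtTA cells and carry an inducible FLAG-tagged Chtop cDNA, without exon 5 in the mEx5 line and with it in the pEx5 line. No library used here had doxycycline, so both groups carried the cDNA uninduced. Per the labels' protocols, medium was changed at 24 h and cells were harvested at 72 h, with wells of 3 dishes combined for a knockdown sample and of 2 for a control. The cytoplasm is the supernatant of a detergent lysis. Total lysate, 20% of the same cells, and nuclei supplied 8 libraries each for comparison.

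Chtop is a nuclear RNA-binding protein whose arginine- and glycine-rich region is methylated by the arginine methyltransferase PRMT1. In mammalian cells it works with the THO and TREX complex, which loads the export receptor NXF1 on spliced mRNA and so hands it to the nuclear pore. The cytoplasmic fraction holds the mRNA that has left the nucleus, together with mitochondria and their RNA.

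Total counts ran from 19478702 to 36510535 per library, and the median standard error (SE) of a log2 fold change was 0.095. Levels are TMM-scaled CPM, counts relative to the library's total. Calls come from edgeR's quasi-likelihood test with line as covariate and no pairing by replicate number. A gene was called at an adjusted p below 0.05, Benjamini-Hochberg adjusted over 9234 genes. Of these, 3433 were called (37.2%), 1672 higher in knockdown cytoplasm (18.1%) and 1761 lower (19.1%), and 4432 had an unadjusted p below 0.05 (48%). Knockdown libraries lay wholly above control libraries in 2038 genes (22.1%) and wholly below in 1946 (21.1%). Among these were 3112 of the 3433 called genes, or 33.7% of all genes tested. At least 2-fold changes were fewer, 70 higher (0.758%) and 119 lower (1.29%). Correlations of log2 levels were 0.977 to 0.993 among knockdown libraries, 0.990 to 0.992 among control libraries and 0.946 to 0.974 between the groups. No spike-in is named in the labels, so a change is one relative to the other genes of the fraction. Scaled by library totals alone, 2119 genes were higher and 1433 lower, and higher genes made up 59.7% of the calls instead of 48.7%.

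Chtop (ENSMUSG00000001017.15, mm10 chr3:90498956-90509498, minus strand), the targeted gene, had 25.6 and 30.5 CPM in the mEx5 knockdown libraries and 20.6 and 17.3 in the pEx5 knockdown libraries. The mEx5 control libraries had 152 and 139 CPM and the pEx5 control library 139. Every knockdown library lay below every control library, as the labels require. The level was 5.97-fold lower (log2 fold change -2.58, SE 0.12, edgeR adjusted p = 1.57e-05). In the other fractions of the same cultures the log2 fold change was -2.36 in total lysate and -0.83 in nuclei.

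The cells carried the markers of their labelled type. Of 12 neuronal and sympathoadrenal markers, 10 had at least 1 RPKM in every library, while Th, the rate-limiting enzyme of catecholamine synthesis, stayed below 1 RPKM in all 7. Summed over the list, the markers came to 1319 to 1672 RPKM in knockdown libraries and 1909 to 2011 in control libraries. Of the 9 markers with counts, 5 were called lower and 0 higher, beside 19.1% and 18.1% of all genes. The lower calls became 3 without the mEx5 knockdown library of replicate 1, where 13.6% of all genes were called lower. They became 1 without the pEx5 control library, where 11.2% of all genes were called lower. A smaller number of cells of a state and less RNA per cell cannot be told apart in such lysates. Glial markers summed to 14.1 to 19.4 RPKM in knockdown and 15.3 to 17.4 in control libraries, with Aqp4, Olig1, Olig2 and S100b at 0. Blood markers summed to at most 0.57 RPKM, with Ptprc and Hbb-bs at 0, and fibroblast markers to at most 2.29, with Col1a2, Col3a1 and Thy1 at 0.

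Fndc10, which encodes a membrane protein with a fibronectin type III domain, showed the largest rise among genes that met the abundance limit of 5 CPM. Its level was 34.3, 29.1, 35.1 and 29.7 CPM in knockdown libraries, against 7.29, 6.46 and 7.48 in control libraries. It rose 4.5-fold (log2 2.17, SE 0.12, edgeR adjusted p = 1.57e-05). Gid4 (chr11:60417145-60450927, plus strand), the substrate receptor of the CTLH ubiquitin ligase, had 134, 125, 125 and 116 CPM in knockdown libraries and 39.4, 50.1 and 36.9 in control libraries. That was a 3.03-fold rise (log2 1.6, SE 0.10, edgeR adjusted p = 1.93e-05). Over the 11 CTLH genes in the count table the median was 0.011. Gid8 was also called higher and Ypel5 lower, and both calls were lost without either mEx5 knockdown library, at edgeR adjusted p-values of 0.0503 to 0.135.

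Tug1, a long noncoding RNA, stood at 73.0, 58.7, 83.5 and 55.9 CPM in knockdown and 24.4, 28.4 and 26.3 in control libraries (log2 1.35). Its annotation class is antisense, and no source used here says that the counting used strand, so reads of a partner gene cannot be told apart from its own. Skida1, which encodes a SKI and DACH domain protein, had 35.8, 27.3, 29.2 and 23.5 CPM in knockdown libraries and 10.6, 13.2 and 11.4 in control libraries (log2 1.32). Rn7s1, a copy of the RNA of the signal recognition particle, had 72.0, 68.7, 144 and 71.9 CPM against 27.3, 25.9 and 27.4 (log2 1.63). The pEx5 knockdown library of replicate 1 stood apart in Rn7s1, and reads of its near-identical copies cannot be told apart. The others of the 12 highest were Tmem203 (log2 1.46), Hist3h2ba and Pdlim3 (both 1.40), Rbms2 (1.38), Rnf227 (1.36), Zfp961 and Fmc1 (both 1.27). All of these had knockdown libraries wholly above control libraries, which the rule for naming them required.

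Gnai2 (chr9:107614125-107635367, minus strand), an inhibitory G protein alpha subunit, had 71.1, 84.0, 58.1 and 72.5 CPM in knockdown libraries and 277, 267 and 259 in control libraries. It fell 3.68-fold, with a log2 fold change of -1.88 (SE 0.10, edgeR adjusted p = 1.57e-05). Dpysl3, a collapsin response mediator that shapes growth cones, had 298, 374, 255 and 270 CPM in knockdown libraries and 822, 1000 and 804 in control libraries (log2 -1.51). Ppp6r2, a regulatory subunit of protein phosphatase 6, had 18.1, 19.9, 15.2 and 18.1 CPM against 52.5, 64.4 and 50.7 in control libraries (log2 -1.61). In these 3 genes the knockdown libraries of both lines lay together.

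Ptgs1, the cyclooxygenase COX-1, had 16 and 22.3 CPM in mEx5 knockdown libraries and 30 and 48.1 in pEx5 knockdown libraries. Its mEx5 control libraries had 78.1 and 90 CPM and its pEx5 control library 122 (log2 -1.93). Procr, the protein C receptor, and Ctla2a, a cysteine protease inhibitor, had the same order of lines in both groups, with log2 fold changes of -1.96 and -1.98. Reads may be shared between Ctla2a and the similar Ctla2b (log2 -1.71). The lines differed in level here but their log2 fold changes were not called different: Ctla2a had -2.26 in mEx5 and -1.57 in pEx5 cells. The remaining genes of the 12 were Tuba8 (log2 -1.79), Cstb (-1.61), S100a10 (-1.6), Ephx1 (-1.59) and Rnh1 (-1.55). Tuba8 is an alpha tubulin, Cstb an inhibitor of cathepsins, S100a10 the partner of annexin A2, Ephx1 the microsomal epoxide hydrolase and Rnh1 the inhibitor of pancreatic-type ribonucleases.

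Among genes called higher, Noct, the nocturnin phosphatase, ranked high by RPKM. It had 15332, 15423, 17627 and 16157 CPM in knockdown libraries and 8707, 9970.0 and 8159 in control libraries (log2 0.85, SE 0.11, edgeR adjusted p = 5.26e-04). The groups did not overlap, and the log2 fold change was 0.64 in total lysate and 0.45 in nuclei.

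**Figure D1:**
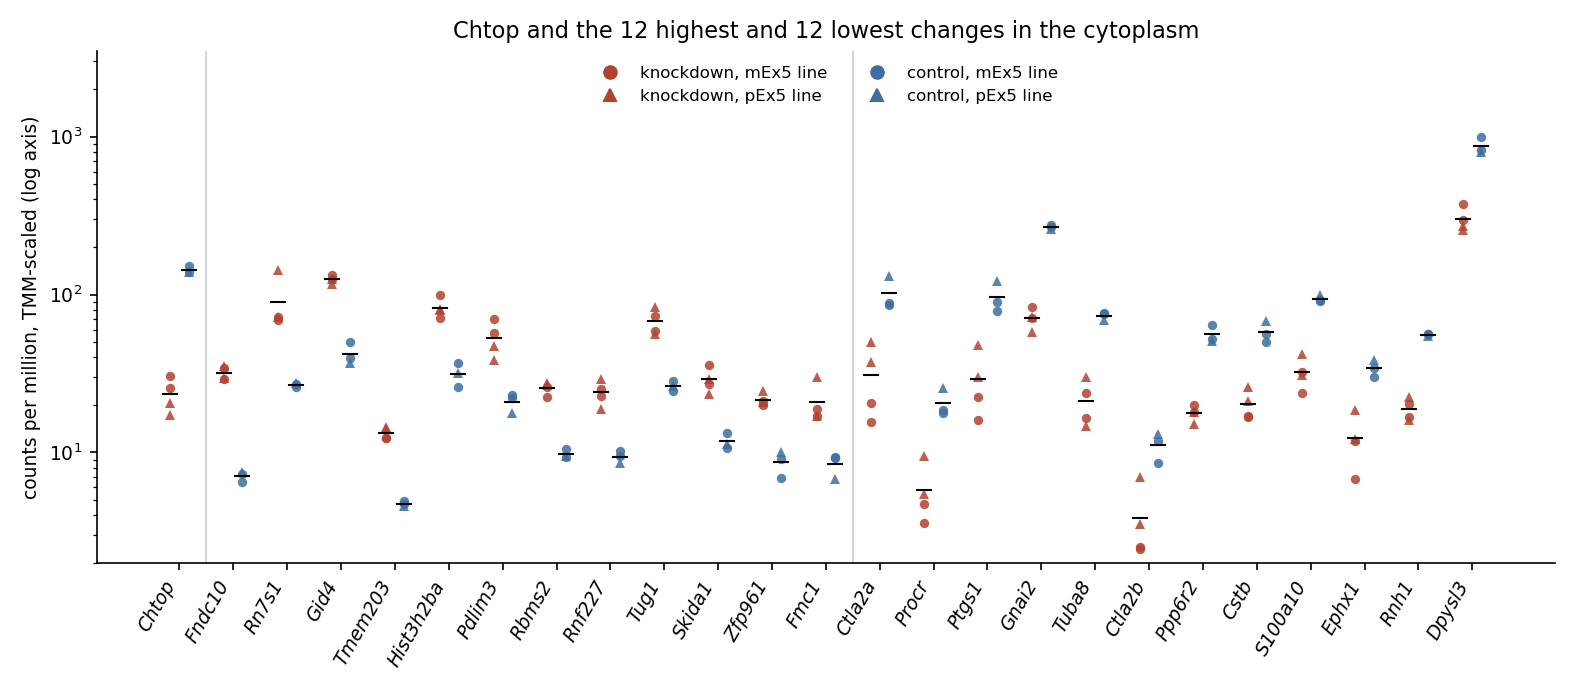
Levels of Chtop and of the 12 genes with the highest and 12 with the lowest log2 fold change, in TMM-scaled CPM on a log axis. Each gene has its knockdown libraries on the left (red) and its control libraries on the right (blue), circles for the mEx5 line and triangles for the pEx5 line, with the group mean as a bar. No group overlaps its counterpart, and the pEx5 knockdown library at 144 stands apart in Rn7s1.

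A short sequence stood in the 3′ UTRs of 6 of the 12 lowest genes. Among 15896 sequences of 7 bases that occur in at least 50 of 8726 3′ UTRs (GENCODE M21 transcripts on mm10, UTRs of at least 30 bases), GAAAACT had the lowest coefficient when the cytoplasmic log2 fold change was regressed on its presence, UTR length and GC content. The coefficient was -0.23, against a standard deviation of 0.024 over all such sequences. The motif was picked from these values, so its figures describe the data and carry no test. It stood in 1163 of the 8726 3′ UTRs (13.3%). The 6 of the lowest genes were Gnai2 with 2 copies, Dpysl3 with 2, and Ppp6r2, Cstb, S100a10 and Rnh1 with 1 each. None of the 10 highest genes that have a 3′ UTR held it. The sites in 5 of the 6 are shown because they mark which of the lowest genes hold the sequence, and those of Dpysl3 are not shown. Each is read 5′ to 3′ on the mRNA strand from the reference transcripts, with the 7 bases in capitals, and lies in the 3′ UTR at the mm10 position and strand given.
Gnai2, chr9:107614552-107614581, minus: ggaaaaataagGAAAACTgcaaatctagaa
Gnai2, chr9:107614536-107614565, minus: ctgcaaatctaGAAAACTttttagagaaac
Ppp6r2, chr15:89286187-89286216, plus: tccttaatcaaGAAAACTacctggtgatgc
Cstb, chr10:78427566-78427595, plus: aattattttcaGAAAACTgtatatgatctc
S100a10, chr3:93564541-93564570, plus: aatctgagagaGAAAACTtaatccaatggc
Rnh1, chr7:141160353-141160382, minus: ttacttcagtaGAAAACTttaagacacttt

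Over all genes with a 3′ UTR, 34.0% of the 1163 that held GAAAACT were called lower, against 17.1% of the 7563 without it. Genes called higher made up 11.5% of those with it and 18.9% of those without it. The median log2 fold change was -0.108 with the sequence and 0.012 without it. With 1 copy the median was -0.096, with 2 copies -0.220 and with 3 or more -0.168, and the share called lower was 32.1%, 44.4% and 46.9% (989, 142 and 32 genes). An A after the 7 bases was found in 294 genes, of which 42.2% were called lower, with a median of -0.198. The A was picked as the following base with the lowest median, so these figures carry no test. Of the 12 lowest genes 1, Ppp6r2, had it. The reverse complement AGTTTTC stood in 1324 3′ UTRs, of which 17.4% were called lower, with a median of 0.045.

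The next lowest sequences, AAAACTA and AGAAAAC, overlap GAAAACT. Where GAAAACT was absent, 17.1% and 16.8% of the genes that held them were called lower. Of 116 genes with a 3′ UTR that were at least 2-fold lower, 50 held GAAAACT (43.1%), and of 41 at least 2-fold higher 4 did (9.76%). Medians of the 1163 genes were -0.111 in the mEx5 line, -0.127 in the pEx5 line, -0.110 in total lysate and -0.061 in nuclei. With all genes that held the sequence left out of the fit, an alternative chosen after seeing the data, 1409 genes were higher and 1467 lower of 8070. At least 2-fold lower were 70 instead of 119, a drop that follows from leaving out the 50 holders among them. The sources used here do not give the siRNA sequence, and whether it pairs with these sites was not tested.

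**Figure D2:**
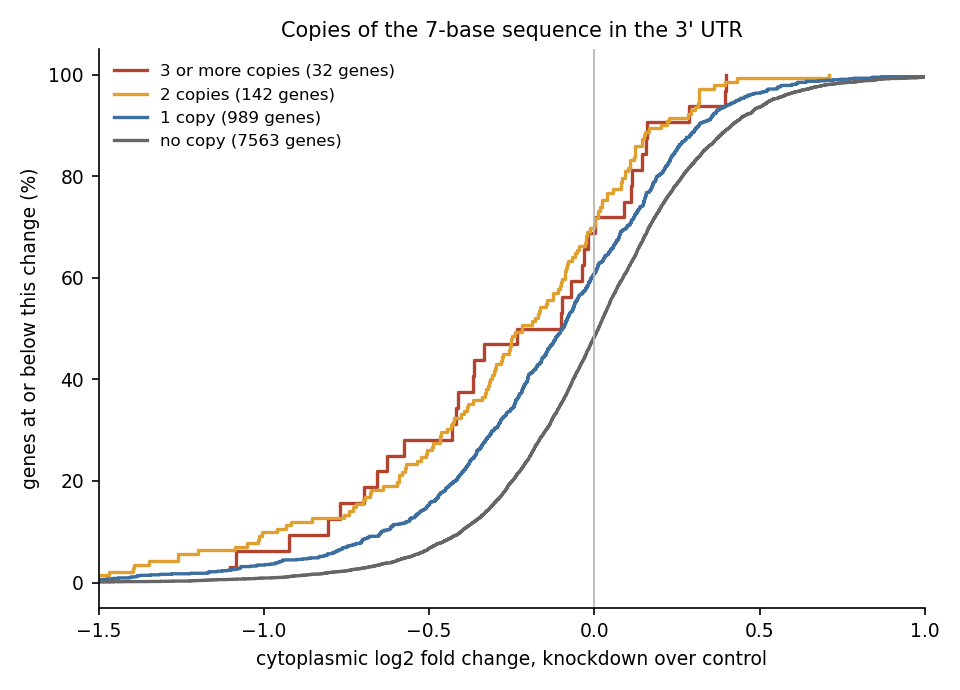
Share of genes (%) at or below each cytoplasmic log2 fold change, knockdown over control, for genes with 3 or more, 2, 1 or no copies of the 7-base sequence in the 3′ UTR (32, 142, 989 and 7563 genes). The x axis is limited to -1.5 to 1. The curves with copies lie left of the curve without a copy, with medians of -0.168, -0.220, -0.096 and 0.012.

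Other named genes with the sequence were spread over several pathways. Pdia6, a disulfide isomerase of the endoplasmic reticulum, had 97.5, 125, 88.3 and 125 CPM in knockdown libraries and 286, 289 and 285 in control libraries (log2 -1.39, SE 0.13, edgeR adjusted p = 1.01e-04). Txndc5, another such isomerase, fell by 1.07 on the log2 scale. Slc18a2, the vesicular monoamine transporter, had 52.3, 67.5, 52.9 and 69.6 CPM in knockdown libraries and 154, 158 and 161 in control libraries (log2 -1.38, SE 0.11, edgeR adjusted p = 6.37e-05). Ctsl, the lysosomal protease cathepsin L, fell by 1.46, and Ctsb, cathepsin B, by 0.68 on the log2 scale. In these genes no knockdown library reached a control library. E2f1 held the sequence and was called higher, at 0.47.

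Chaperones and folding enzymes of the endoplasmic reticulum were called in both directions. Of 24 such genes, 9 were called higher and 4 lower, beside 18.1% and 19.1% of all genes, with a median of 0.092. Hyou1, a chaperone of this compartment, had 726, 732, 670.4 and 741 CPM in knockdown and 448, 471 and 435 in control libraries (log2 0.68, SE 0.08, edgeR adjusted p = 2.79e-04). Hspa5, the main such chaperone, was higher by 0.53 on the log2 scale. The 4 lower were Pdia6, Txndc5, Ero1l and Fkbp2, and 7 of the 24 held the 7-base sequence in the 3′ UTR, with a median of -0.2 against 0.11 for those without it. With the pEx5 control library left out 4 of the 24 were called higher, and 5 with the mEx5 knockdown library of replicate 1 left out.

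Ribosomal protein genes were called lower in knockdown cytoplasm more often than higher. Of 85 tested, 41 were called lower and 0 higher, beside 19.1% and 18.1% of all genes, and their median log2 fold change was -0.28 against 0.001 over all genes. Rpl12, of the large subunit, had 99.1, 115, 105 and 124 CPM in knockdown and 197, 205 and 158 in control libraries (log2 -0.73, SE 0.11, edgeR adjusted p = 0.00108). Rpl24 had 413, 416, 397 and 446 CPM in knockdown libraries and 632, 566 and 576 in control libraries (log2 -0.50, SE 0.08, edgeR adjusted p = 0.00152). Rpl31 had 332, 356, 342 and 347 CPM against 463, 477 and 450 in control libraries (log2 -0.42). Neither Rpl24 nor Rpl31 had knockdown libraries that overlapped control libraries.

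Together the ribosomal protein genes took 5.71, 5.95, 5.76 and 6.01% of counts in knockdown libraries, against 7.46, 7.04 and 6.56% in control libraries. The groups did not overlap (exact permutation test, two-sided, p = 0.0571, the smallest that 4 against 3 libraries allow). Such shares were compared for 5 lists in all. Many ribosomal protein genes have processed pseudogenes, and the deposited counts may divide reads among copies. The count depended on the mEx5 libraries, since 20 were lower without the mEx5 knockdown library of replicate 1, 19 without that of replicate 2, and 19 and 25 without the mEx5 control libraries of replicates 1 and 2. The median stayed between -0.37 and -0.19 in all 17 alternatives, all of them fits over both lines. By line it was -0.37 in mEx5 and -0.15 in pEx5 cells.

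In total lysate, 7 of the ribosomal protein genes were called higher and 11 lower, beside 22.2% and 23.3% of all genes there, with a median of 0.018. In nuclei 5 were called higher and 0 lower, beside 15.5% and 15.4% of all genes there, with a median of 0.019. The cytoplasmic minus total-lysate difference of their changes had a median of -0.32 and was above 0 in 4 of 85, beside 4701 over all genes in the count table. No single gene was called for that difference. Against nuclei the median was -0.31 and 3 were called lower, beside 1.85% of all genes. Of 12 noncoding host genes of small nucleolar RNAs 3 were called higher and 1, Snhg12, lower, beside 18.1% and 19.1% of all genes. Their median was -0.16 in cytoplasm and 0.25 in total lysate. The 3 higher calls fell to 0 without the mEx5 knockdown library of replicate 1 or the pEx5 control library and to 1 without the mEx5 control library of replicate 2. Without the pEx5 knockdown library of replicate 1, 4 host genes were called higher and 5 lower, with a median of -0.27. Translation initiation and elongation factors had 4 called higher and 15 lower of 66, beside 18.1% and 19.1% of all genes, and a median of -0.088, or -0.052 without the mEx5 control library of replicate 1. Among them Eif4g2 fell by 0.96 and Eef1g by 0.88 on the log2 scale, and both held the 7-base sequence.

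Transcript length moved with the change in the same direction. In 5 equal groups of 8926 coding genes, from a median of 1169 to 6230 bases, the median log2 fold change was -0.105, -0.047, 0.003, 0.050 and 0.098, and the share called lower was 25.5, 22.2, 18.4, 17 and 13.6%. Ribosomal protein transcripts had a median of 835 bases. In total lysate the medians lay between -0.031 and 0.045, with the shortest group highest. In nuclei they were 0.034 in the shortest and -0.018 in the longest group. The mEx5 line alone had -0.163 in the shortest and 0.129 in the longest group, and the pEx5 line -0.025 and 0.039. The median deviation from the mean of all libraries was 0.12 in the shortest group and -0.115 in the longest for the mEx5 control library of replicate 1, the widest of the 7. With each library's trend on length and GC taken out, an alternative chosen after seeing the data, 34 ribosomal protein genes were called lower and 0 higher, with a median of -0.19. The 5 groups by GC content showed no such order, with medians from -0.014 to 0.008.

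**Figure D3:**
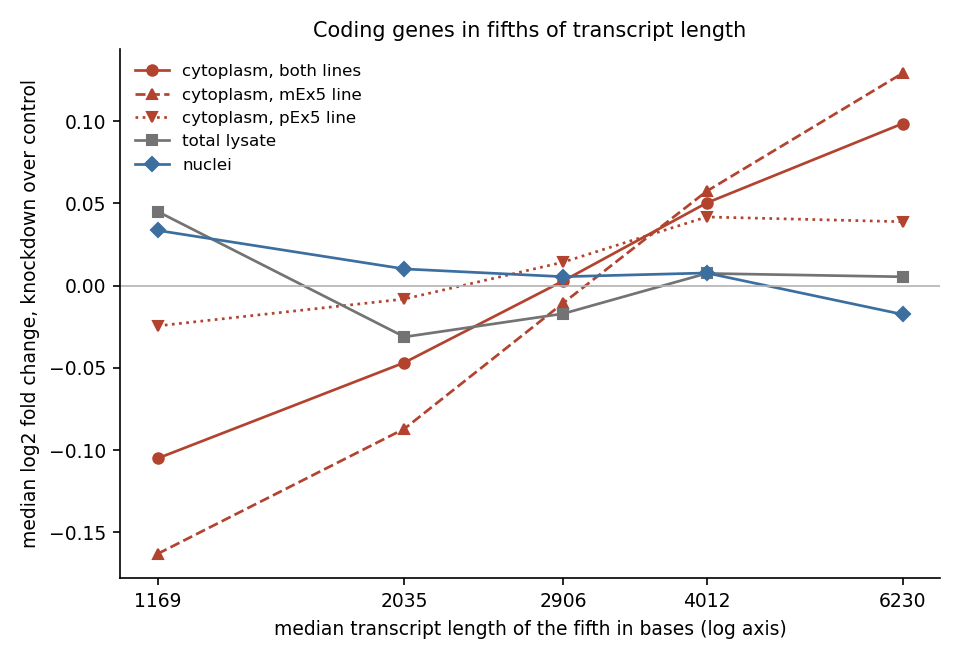
Median log2 fold change, knockdown over control, of coding genes in 5 equal groups by transcript length (x axis, median bases of the group, log axis), for the cytoplasm of both lines and of each line, total lysate and nuclei. The cytoplasm of both lines ran from -0.105 in the shortest to 0.098 in the longest group, with a steeper course in the mEx5 line. Total lysate and nuclei stayed within 0.05 of 0.

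Most cholesterol genes were called lower. Of 24 genes of synthesis and uptake, 18 were called lower and 1 higher, beside 19.1% and 18.1% of all genes, and the median log2 fold change was -0.54. Dhcr7, the reductase of the last step, had 58.4, 63.0, 56.7 and 57.7 CPM in knockdown libraries and 100.3, 122 and 107 in control libraries (log2 -0.89, SE 0.09, edgeR adjusted p = 1.39e-04). Pmvk, phosphomevalonate kinase, had 24.2, 33.4, 16.9 and 23.6 CPM against 69.2, 78.0 and 45.9 in control libraries (log2 -1.28, SE 0.14, edgeR adjusted p = 2.48e-04). Both genes had all knockdown libraries below all control libraries. Hmgcs1, a synthase early in the pathway, was lower by 0.56 on the log2 scale. None of the 24 held GAAAACT in its 3′ UTR. Medians were -0.58 in total lysate and -0.48 in nuclei, and 15 to 20 genes were called lower in all 17 alternatives.

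Of 13 fatty acid synthesis genes 7 were called lower and 2 higher, beside 19.1% and 18.1% of all genes, with a median of -0.29. Acaca, acetyl-CoA carboxylase, was 1 of the 2 higher (log2 0.41), at 128, 128, 130 and 108 CPM in knockdown libraries and 91.1, 98.7 and 90.9 in control libraries. Of the 13, 2 were called lower without the pEx5 control library, and 4 without the mEx5 knockdown library of replicate 1 or the mEx5 control library of replicate 2.

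**Figure D4:**
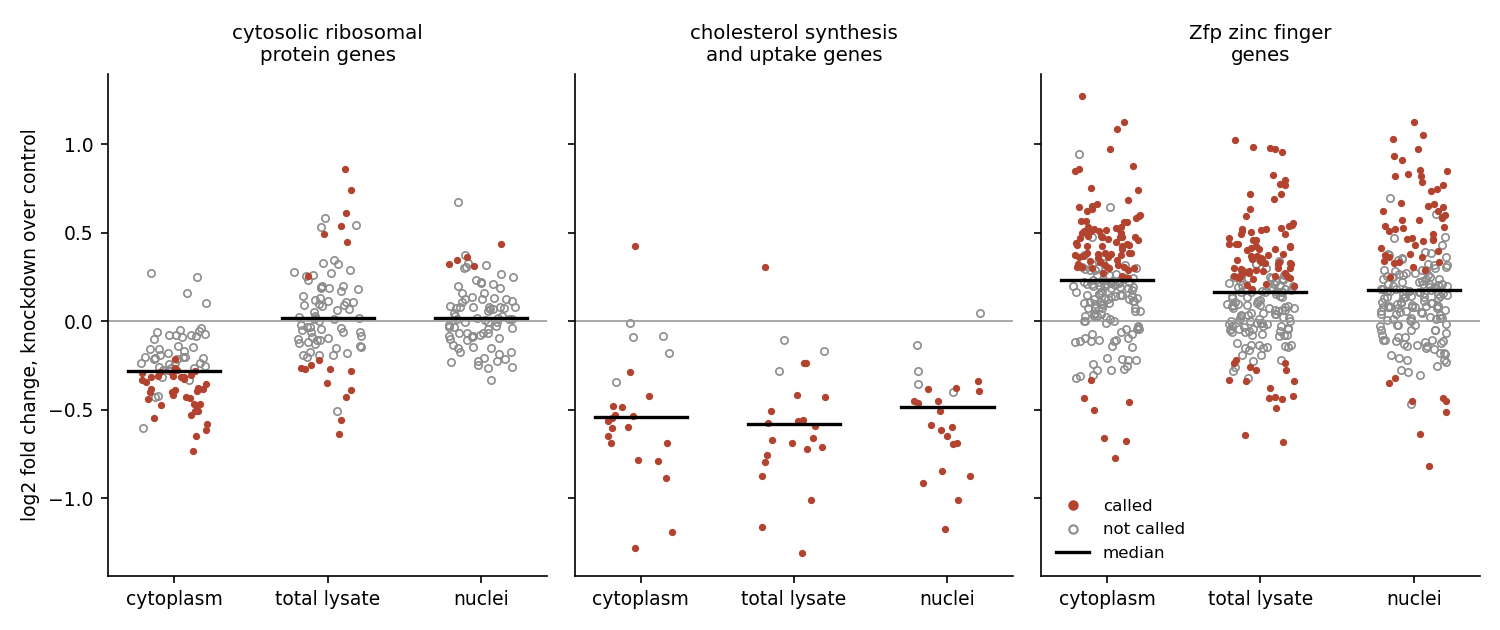
Log2 fold change, knockdown over control, of each cytosolic ribosomal protein, cholesterol and Zfp zinc finger gene in cytoplasm, total lysate and nuclei. Filled points passed the test of their fraction and open points did not, and bars are medians. The median of ribosomal protein genes is -0.28 in the cytoplasm, 0.018 in total lysate and 0.019 in nuclei, while medians of cholesterol genes lie below 0 and those of Zfp genes above 0 in all 3.

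Genes of the Zfp zinc finger family, most of them DNA-binding repressors, were called higher more often than lower. Of 206 tested, 82 were called higher and 7 lower, beside 18.1% and 19.1% of all genes, with a median of 0.24. Zfp651 had 44.5, 41.8, 40.1 and 42.1 CPM in knockdown libraries and 17.3, 18.7 and 21.7 in control libraries (log2 1.13, SE 0.10, edgeR adjusted p = 8.37e-05). Zfp367 was higher by 1.09 on the log2 scale, and Zfp512 was lower, at -0.66. Close family members may share reads. The median was 0.17 in total lysate and 0.18 in nuclei. Called higher were 44 without the pEx5 control library, and 52 without the mEx5 knockdown library of replicate 1. With replicate as a block 104 were higher and 13 lower.

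Cytoskeletal and adhesion genes were called lower more often than higher. Of 39 genes of actin, annexins and S100 proteins, 23 were called lower and 4 higher, beside 19.1% and 18.1% of all genes. Their median was -0.34. Actg1, cytoplasmic gamma actin and the gene with the highest RPKM among those called lower, had 5649.5, 6504, 6018 and 6733 CPM in knockdown libraries and 9267, 9271 and 9277 in control libraries (log2 -0.58, SE 0.09, edgeR adjusted p = 0.00152). Vim, vimentin, had 1394, 1521, 1740.3 and 2301 CPM against 3042, 2960.2 and 3967 in control libraries (log2 -1.01, SE 0.11, edgeR adjusted p = 1.99e-04). The pEx5 libraries were the higher ones in both groups for Vim, and the groups did not overlap. Ezr and Rdx, linkers of actin to the membrane, were called higher at 0.44 and 0.31, while the related Msn fell by 0.72. Of the 39, 14 were called lower without the pEx5 control library.

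Of 19 adhesion and matrix genes 12 were called lower and 1, Fn1, higher, beside 19.1% and 18.1% of all genes, with a median of -0.44. Lgals1, galectin-1, had 299, 366, 412 and 448 CPM in knockdown libraries and 707, 809 and 902 in control libraries (log2 -1.14, SE 0.10, edgeR adjusted p = 7.29e-05). Itgb5, an integrin beta chain, fell by 0.81 on the log2 scale. Of 13 tubulin genes 8 were called lower and 0 higher, beside the same shares of all genes, with a median of -0.31. Among them Tubb2a was at -0.72 and Tuba1a at -0.43. Without the pEx5 control library 3 tubulins were called lower, and 5 without the mEx5 knockdown or the mEx5 control library of replicate 1. Close tubulin copies may share reads. Of 18 G protein subunits 8 were called lower and 2 higher, beside the same shares of all genes. Without the genes that held the 7-base sequence, which include Gnai2, Gng2 and Gng5, 5 were called lower.

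Neuronal and secretory genes were also called lower more often than higher. Of 40 genes of the neuronal cytoskeleton and synapse, 19 were called lower and 3 higher, beside 19.1% and 18.1% of all genes. Their median was -0.19. Syn2, a synaptic vesicle protein, had 52.9, 66.6, 28.7 and 43.6 CPM in knockdown libraries and 142, 166 and 110.1 in control libraries (log2 -1.46, SE 0.14, edgeR adjusted p = 1.46e-04). Cplx2, a complexin of vesicle release, fell by 1.07 on the log2 scale. Ina, alpha-internexin, was higher, at 359, 342, 340.1 and 295 CPM in knockdown and 176, 183 and 197 in control libraries (log2 0.85). Celf5, a neuronal RNA-binding protein, was also called higher. Leaving out the pEx5 control library left 10 of the 40 called lower.

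Of 14 genes of secretory granules and their peptides 8 were called lower and 0 higher, beside 19.1% and 18.1% of all genes. Their median was -0.36. Chgb, chromogranin B, had 299, 360.1, 177 and 309 CPM in knockdown libraries and 795, 601 and 581 in control libraries (log2 -1.15, SE 0.19, edgeR adjusted p = 0.00216). Vgf, a granule peptide precursor, fell by 0.93 on the log2 scale. Leaving out the pEx5 control library left 4 called lower, and 5 were lower without the mEx5 knockdown library of replicate 1 or the mEx5 control library of replicate 2. Of 36 lysosomal genes 16 were called lower and 2, Ctso and Tpp1, higher, beside the same shares of all genes, with a median of -0.21. Cst3, an inhibitor of cathepsins, fell by 0.69 on the log2 scale. Without the mEx5 control library of replicate 2, 10 lysosomal genes were called lower.

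Cell cycle genes that were called were mainly higher for S phase and mainly lower for mitosis. Of 38 genes of DNA replication and S phase, 11 were called higher and 2 lower, beside 18.1% and 19.1% of all genes. Their median was 0.11. E2f1, a transcription factor of S-phase entry, had 143, 143, 147 and 144 CPM in knockdown libraries and 100.7, 102 and 108 in control libraries (log2 0.47, SE 0.07, edgeR adjusted p = 6.93e-04). Of 31 genes of mitosis and G2/M, 12 were called lower and 1, Foxm1, higher, beside 19.1% and 18.1% of all genes. Their median was -0.19. Ube2c, a ubiquitin-conjugating enzyme of mitotic exit, had 190, 190, 199 and 211 CPM against 295, 266 and 313 in control libraries (log2 -0.58, SE 0.07, edgeR adjusted p = 4.25e-04). Both genes had separate groups. With the pEx5 control library left out, 5 replication genes were called higher and 5 mitotic genes lower. Leaving out the mEx5 knockdown library of replicate 1 gave 5 and 6, that of replicate 2 gave 6 and 7, and the mEx5 control library of replicate 2 left 5 replication genes called higher.

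Mitochondrially encoded RNAs took 2.72, 2.27, 3.31 and 2.30% of counts in knockdown libraries, against 2.09, 1.91 and 2.03% in control libraries (exact permutation test, two-sided, p = 0.0571, the smallest the design allows). Of 15 tested, 3 were called higher and 0 lower, beside 18.1% and 19.1% of all genes, with a median of 0.34, or 0.17 without the pEx5 knockdown library of replicate 1. mt-Nd5, a complex I subunit, had 1901, 1255, 1785 and 1227 CPM in knockdown libraries and 927, 800.1 and 970 in control libraries (log2 0.77, SE 0.17, edgeR adjusted p = 0.00685). The replicate 1 libraries of the knockdown were the higher pair. The other calls, mt-Nd4 (0.50) and mt-Cytb (0.42), were each lost without the mEx5 knockdown library of replicate 1, any one of the 2 mEx5 controls or the pEx5 control, at adjusted p-values of 0.0586 to 0.137 for mt-Nd4 and 0.0609 to 0.111 for mt-Cytb. With the replicate as a block 8 of the 15 were called higher. Nuclear-encoded respiratory chain genes had a median of -0.083 in cytoplasm, with 4 called higher and 12 lower of 77, beside 18.1% and 19.1% of all genes. In total lysate their median was 0.22, with 23 higher and 7 lower, beside 22.2% and 23.3% of all genes in that fraction. The 12 lower calls in cytoplasm became 5 or 6 without any one of the 4 mEx5 libraries and 22 without the pEx5 knockdown library of replicate 1, and the median was 0.011 with the length and GC trend taken out and the replicate as a block.

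Genes whose transcripts are known to keep detained introns in the nucleus took 0.43 to 0.479% of counts in knockdown libraries and 0.406 to 0.429% in control libraries. Of 29 such genes 5 were called higher and 3 lower, beside 18.1% and 19.1% of all genes. Their median log2 fold change of -0.0096 changed sign in 11 of 17 alternatives. Nuclear long noncoding RNAs took 0.0103 to 0.0135% in knockdown and 0.00774 to 0.00976% in control libraries, a share that rests on the 4 of 11 listed genes in the count table. Of these 1 was called higher and 1 lower, and the median of 0.036 changed sign in 4 alternatives. The RPKM of all 11 summed to 47.6 to 57.3 in knockdown libraries and 48.2 to 52.6 in control libraries, which overlap. Neither pair of ranges of shares of counts overlapped (both exact permutation p = 0.0571, two-sided, the smallest possible). The part of such RNA in the other results was not tested.

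Of 35 genes of THO, TREX and the NXF1 adaptors, the export pathway of Chtop, 6 were called higher and 3 lower, beside 18.1% and 19.1% of all genes, with a median of 0.10. Alyref2, a relative of the adaptor Alyref, had 11, 10.7, 12.1 and 11.9 CPM in knockdown libraries and 4.95, 5.33 and 4.81 in control libraries (log2 1.17, SE 0.12, edgeR adjusted p = 1.99e-04). Nxf7, a relative of the receptor Nxf1, had 9.45, 11.3, 12.9 and 17.4 CPM against 34.5, 35.0 and 33.6 in control libraries (log2 -1.5, SE 0.15, edgeR adjusted p = 1.83e-04). Thoc1, a THO subunit, was higher by 0.51 and Rbm15, an RNA-binding protein of the m6A writer complex, lower by 0.51 on the log2 scale. Of the 35, 2 were called higher and 2 lower without the pEx5 control library.

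Of 53 nuclear pore and karyopherin genes 10 were called higher and 7 lower, beside 18.1% and 19.1% of all genes. Ndc1 (-1.02) and Ipo11 (-0.70), which both held the 7-base sequence, were lowest. The 7 lower calls became 4 without the mEx5 control library of replicate 2 and 3 without the pEx5 control library, and with replicate as a block 16 were higher and 10 lower. Prmt5, a type II arginine methyltransferase, was called higher at 0.30 and its partner Wdr77 at 0.41. Of the 19 genes of arginine methylation and the methylated Chtop complex 5 were called higher and 5 lower, beside the same shares of all genes. These calls were weak: 1 to 3 were higher and 1 to 3 lower without any one of the 4 mEx5 libraries or the pEx5 control library, the last of which ended both named calls (edgeR adjusted p = 0.0531 and 0.111). Of 12 genes of RNA interference 5 were called higher and 1, Prkra, lower, beside the same shares of all genes. Dgcr8, the microRNA processing partner of Drosha, had 55.8, 52.9, 53.7 and 45.5 CPM in knockdown libraries and 27.2, 31.9 and 30.3 in control libraries (log2 0.81, SE 0.10, edgeR adjusted p = 3.79e-04). Ago1, Tnrc6b, Tnrc6c and Xpo5 were the others called higher, at 0.66, 0.65, 0.79 and 0.40.

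Of 18 histone genes 6 were called higher and 1, Hist1h2bc, lower, beside 18.1% and 19.1% of all genes, with a median of 0.21. The median was 0.085 without the mEx5 knockdown library of replicate 1, 0.138 without the pEx5 knockdown library of replicate 1 and 0.105 without the mEx5 control library of replicate 2. The histone share of counts was 0.409 to 0.509% in knockdown libraries and 0.35 to 0.414% in control libraries, which overlap (exact permutation test, two-sided, p = 0.114). H2afj, a replication-independent H2A variant, had 169.5, 135, 158 and 146 CPM in knockdown libraries and 67.4, 63.8 and 68.1 in control libraries (log2 1.19, SE 0.09, edgeR adjusted p = 4.64e-05). Near-identical histone copies can share reads, and the libraries were made from poly(A) RNA, which most replication-dependent histone mRNAs lack. The log2 fold change of all 18 was lower in cytoplasm than in total lysate, with a median difference of -0.34, but none was called for that difference.

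Most genes called in a line had the same direction in the other. Over all 9234 genes the log2 fold changes of the lines had a Spearman rho of 0.818. Most list medians had the same sign in the lines, but some did not. Nuclear-encoded respiratory chain genes had -0.165 in mEx5 and 0.042 in pEx5 cells, and host genes of small nucleolar RNAs -0.238 and 0.078. The mEx5 line alone called 940 genes higher (10.2%) and 1030 lower (11.2%), 21.3% in all, and the pEx5 line, whose control is 1 library assumed to vary like the others, 206 (2.23%) and 355 (3.84%), 6.08% in all. In both lines 512 genes (5.54%) were called in the same direction and 0 in opposite ones. Calls with the same sign in the other line came to 1944 of the mEx5 line (21.1%) and 560 of the pEx5 line (6.06%). Of the 3433 calls over both lines 3432 had the same sign in each. Those calls come from a fit that pools the lines, which favours the same sign, so this count does not measure agreement. The difference between the lines was called for 0 genes by edgeR and by DESeq2, with 169 at an unadjusted p below 0.05 by edgeR (1.83%). The replicate numbers pair the samples here, and with replicate as a block 4008 genes were called in the mEx5 line, 2569 in the pEx5 line and 2 for the difference. Counts by line depended on single libraries: the mEx5 line had 216 and 785 without its knockdown library of replicate 1 and 2, 21 and 467 without its control library of replicate 1 and 2, and 3149 and 3153 without the pEx5 knockdown library of replicate 1 and 2. For the pEx5 line these counts were 302, 275, 58, 102, 778 and 1707. Over both lines, leaving out the pEx5 control library gave 945 higher and 1030 lower, and leaving out the mEx5 knockdown library of replicate 1 gave 1089 higher.

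Against the other fractions of the same cultures, which share cells, 2862 of the 3433 cytoplasmic calls (83.4%) were also called in the same direction in total lysate, where 22.2% of genes were higher and 23.3% lower. In nuclei, where 15.5% of genes were higher and 15.4% lower, 1636 (47.7%) were called in the same direction and 35 (1.02%) in the opposite one. The difference of the cytoplasmic and total-lysate changes was called for 0 genes by edgeR and by DESeq2, with 206 at an unadjusted p below 0.05 by edgeR (2.23%). It was called for 1 gene with the replicate or the culture as a block.

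The difference of the cytoplasmic and nuclear changes was called for 57 genes above 0 (0.617%) and 171 below 0 (1.85%), with 20.2% at an unadjusted p below 0.05, and with replicate as a block for 1544 in all. It depended on single libraries. Without any one of the 4 cytoplasmic mEx5 libraries 32 to 115 were called, the lowest without the knockdown library of replicate 1. Without any one of 6 nuclear libraries, all but the mEx5 knockdown of replicate 2 and the pEx5 control of replicate 1, 91 to 124 were called. Gid4 was above 0 at 0.94, with a log2 fold change of 1.6 in cytoplasm and 0.68 in nuclei (edgeR adjusted p of the difference = 0.00454). Sesn2, a stress-induced regulator of mTORC1, was at 0.83, higher by 0.79 in cytoplasm and at -0.07 in nuclei. Elavl3, a neuronal RNA-binding protein, was at -0.85, lower by 0.32 in cytoplasm and at 0.53 in nuclei, and its cytoplasmic call was lost without the pEx5 control library (edgeR adjusted p = 0.0836). Ptbp2, a neuronal splicing regulator, had a log2 fold change of -0.73 in cytoplasm and 0.10 in nuclei, and Rbm15 -0.51 and 0.21. Outside the naming rule and picked after their values were seen, Rdm1 had 0.15 in cytoplasm and 2.02 in nuclei, the lowest difference at -1.82, and Plagl2 had 1.12 and 0.19.

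**Figure D5:**
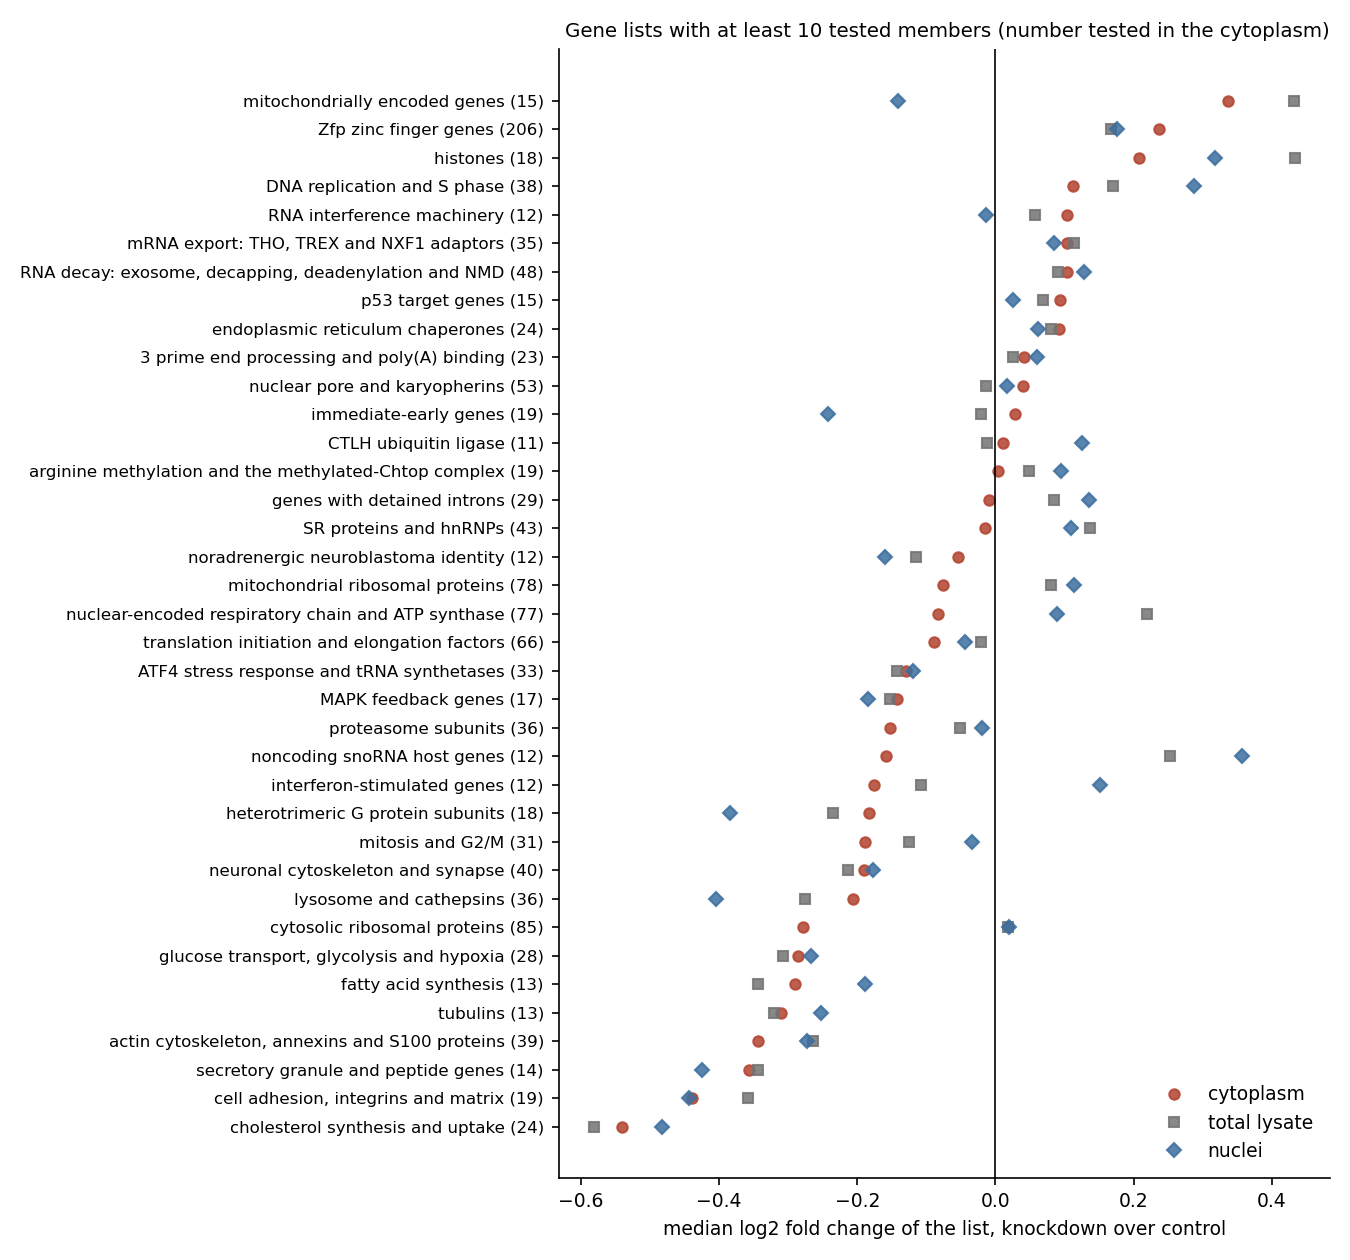
Median log2 fold change, knockdown over control, of each gene list with at least 10 tested members, in cytoplasm, total lysate and nuclei, ordered by the cytoplasm. Cholesterol genes stand lowest at -0.54, and ribosomal protein genes at -0.28 in cytoplasm lie near 0.02 in the other fractions.

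The authors' deposited table marks genes that overlap Chtop iCLIP, the crosslinking map of its RNA contacts, with no source stated. Of 4484 genes with the mark in the authors' deposited table, 20.9% were called higher and 17.8% lower here, and of 4750 without it 15.5% and 20.3%. Medians were 0.028 with and -0.031 without the mark of the authors' deposited table. Genes with the mark also had more counts, with a median of 66.8 against 38 CPM, and the part of abundance in this was not tested. Of the 12 highest genes 2 and of the 12 lowest 4 carried the mark of the authors' deposited table, beside 4484 of all 9234 genes tested.

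Genes outside the count table were tested on log2(RPKM + 0.1) with limma, where a fold change understates that of low genes. Of 3204 with at least 1 RPKM in at least 3 libraries, 667 were called higher (20.8%) and 397 lower (12.4%), 33.2% in all. The count fell to 438 in all without the pEx5 control library, and to 580, 663 and 692 without the mEx5 knockdown library of replicate 1 or 2 or the mEx5 control library of replicate 1. Pyy, a gut and islet peptide hormone, had 0.66, 1.61, 0 and 0.57 RPKM in knockdown libraries and 30.7, 48.8 and 5.13 in control libraries (log2 -4.79, SE 0.69, limma adjusted p = 0.00571). Ppy, a hormone of the same family, had 0, 2.67, 0 and 0.15 RPKM against 27.3, 32 and 2.94 (log2 -5.20). In both, the pEx5 control lay far below the mEx5 controls, and 1 knockdown library, at 2.67 RPKM, came near it for Ppy. The call of Ppy was lost without any one control library, at limma adjusted p-values of 0.0581 to 0.0665.

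Snord8, a small nucleolar RNA, was listed at 0 in all 4 knockdown libraries and had 6.78, 4.83 and 10.53 RPKM in control libraries. The libraries are of poly(A) RNA, and whether these reads come from the small RNA itself was not tested. Galnt15, a glycosyltransferase, had 0.25, 0.24, 0.40 and 0.97 RPKM in knockdown libraries and 2.24, 2.60 and 5.35 in control libraries (log2 -2.88), and Sctr, the secretin receptor, was at -2.44, a call lost without either mEx5 knockdown library (limma adjusted p = 0.0658 and 0.053). The highest were Hspb7 (3.46), Rpl14-ps1 (3.43), Terc (3.42), Magea8 (2.83) and Igfbp5 (2.79). Hspb7, a small heat shock protein, had 2.10, 1.51, 1.59 and 0.96 RPKM in knockdown and 0.05, 0.10 and 0.02 in control libraries. Igfbp5, a binding protein of insulin-like growth factors, had 1.11, 1.17, 1.21 and 1.45 RPKM against 0.06, 0.04 and 0.17. Rpl14-ps1 is a pseudogene that may share reads with Rpl14, and its call was lost under 7 alternatives, as was that of Terc, the telomerase RNA, without the mEx5 knockdown library of replicate 2 or the pEx5 control library.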

How the data were processed

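Poly(A) RNA of 7 cytoplasmic libraries was analysed, with 8 total-lysate and 8 nuclear libraries for comparison. The submitters' processing notes name Salmon 0.14.1, mm10 and, with no version, DESeq2. The authors deposited raw counts for 9239 genes, and no source used here says how those genes were picked. RPKM as deposited are, per the file headers, relative to length and depth. They served for 45154 genes absent from the counts and for markers. The iCLIP mark and the log2 differences between fractions are the authors' own deposited values, and those differences enter no test. Their normalized counts were not used, nor was 1 RPKM column that matches no label.

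Counts were filtered by filterByExpr (5 genes removed), scaled by TMM and tested with edgeR 4.0.16 under R 4.3.3, by robust quasi-likelihood with line as covariate. Lines and fractions were compared in group-means fits. RPKM were tested with limma 3.58.1 with trend, pseudocount 0.1. SE is the log2 fold change over the root of F. P-values measure the spread between biological replicates as labelled. No interval is given for counting error. Both procedures were tested on simulated data. The members and 42 lists were chosen with earlier results of these data known. Lists are described by counts and medians, with no test of those. The summed shares of counts of 5 lists were compared by a two-sided exact permutation test over libraries, whose smallest possible p is 0.0571.

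Genes were named by rule: Chtop, the 12 highest and 12 lowest changes among called genes with at least 5 CPM and groups that do not overlap, the 6 with the highest RPKM called each way, up to 4 called members of each list by smallest p, and the 5 highest and 5 lowest outside the count table. Predicted genes were passed over. List members beyond these are given as examples. Some genes the rule would name are not reported here. Replicate numbers come from the labels. Deviations of same-numbered libraries correlated at 0.65, 0.461 and 0.444, so the numbers were taken to pair the samples. The main edgeR test and the exact permutation test leave this pairing out, and so treat paired libraries as independent. With replicate as a block, an alternative, 2300 genes were called higher and 2456 lower. Gene positions, 3′ UTRs and transcript lengths are those of the GENCODE M21 transcript with the longest coding part. Alternatives were DESeq2 1.42.0, its size factors, library totals, no filter, no line term, the replicate block, all 11 cytoplasmic libraries, other RPKM settings and each library left out. Further alternatives were added after seeing the data: dropping the genes that hold the 7-base sequence, and removing each library's trend on length and GC, alone and with the block.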

Additional observations from a re-analysis of the deposited data

Results flagged for a closer look

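Among 174 named genes, 6 had 1 knockdown library far from the other 3, no more than chance gives on a scale that marks about 1 gene in 20. Rn7s1 had 144 CPM in the pEx5 knockdown library of replicate 1, against 68.7, 71.9 and 72 in the others. In the same library Fmc1 had 30 CPM, against 17, 17.1 and 18.8. In the pEx5 knockdown library of replicate 2, Ptbp2 had 33 CPM against 45.3, 45.5 and 46.7, Acaca 108 against 128, 128 and 130, and Foxm1 136 against 155, 158 and 158. H2afx had 183 CPM in the mEx5 knockdown library of replicate 2 and 199 in each of the others. The pEx5 knockdown library of replicate 1 was also the one with the largest share of mitochondrially encoded counts, 3.31%.

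In 13 named genes the knockdown change differed between cytoplasm and nuclei, by edgeR's test of the difference. The cytoplasmic minus nuclear log2 difference was -1.79 for Chtop, -1.003 for Ppp6r2, -0.86 for Skida1, -0.85 for Elavl3, -0.84 for Ptbp2 and -0.75 for Pdia6. It was -0.74 for both Rbm15 and Exosc2, an exosome subunit, -0.64 for Msn and -0.50 for Cdc25c, a phosphatase of mitotic entry. It was above 0 for Gid4 (0.94), Sesn2 (0.83) and Zfp651 (0.51). Adjusted p-values ran from 2.64e-04 for Chtop to 0.0463 for Ppp6r2. In the authors' deposited table the nuclear minus cytoplasmic difference, which runs the other way, is 1.88 for Chtop and -0.92 for Gid4.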

How the results depend on the processing

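No named gene changed sign in 2927 values under alternatives. Of these values, 2818 stayed on the same side of the threshold and 109 lost the call. Of 174 named genes, 133 were past the threshold under every alternative run. Of the 3433 calls, 0 had the opposite sign in any alternative, and list medians kept their sign in 30 of the 38 lists with tested genes, marker lists aside. DESeq2 called 1793 genes higher and 1885 lower, and the replicate block 2300 and 2456. With the block the mEx5 line had 4008 calls, the pEx5 line 2569, the line difference 2, the cytoplasmic minus total-lysate difference 1 and the cytoplasmic minus nuclear difference 1544. The culture block gave 1 for the total-lysate difference. DESeq2 gave 1095 calls in the pEx5 line and 642 for the nuclear difference. With no filter, 661 genes were called among those without counts, against 1064. Without the genes that held the 7-base sequence 70 were at least 2-fold lower, a drop that follows from leaving out the 50 holders among the 119. With the length and GC trend taken out and the block 2577 were higher and 2705 lower. The cause of the other differences was not tested.

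With each library left out in turn, calls ranged from 945 to 1921 higher, 1030 to 2179 lower, 21 to 3153 in the mEx5 line, 58 to 1707 in the pEx5 line, 0 to 4 for the line difference, 32 to 294 for the nuclear difference and 438 to 1079 outside the count table. Fits that left 1 library in a group assume that it varies like the others. The pEx5 line and the line difference could not be fitted without the pEx5 control library. Depth behind RPKM is unknown, which limits the values below 1 RPKM.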

Other observations

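Genes of stress and growth control gave mixed calls. Of 33 genes of the ATF4 response and tRNA synthetases 11 were called lower and 3 higher, with a median log2 fold change of -0.13, beside 19.1% and 18.1% of all genes. Ddit4, an inhibitor of mTORC1, had 335, 365, 350.5 and 412 CPM in knockdown libraries and 590, 650.1 and 547 in control libraries (log2 -0.70, SE 0.10, edgeR adjusted p = 7.35e-04). Without either mEx5 knockdown library, the mEx5 control library of replicate 1 or the pEx5 control library 5 to 7 of the 33 were called lower. Of 15 p53 target genes 3 were called higher and 3 lower, beside 18.1% and 19.1% of all genes, which is near those shares. Among them Rrm2b, a ribonucleotide reductase subunit, had 12.3, 13.1, 13.1 and 12.8 CPM in knockdown and 24.8, 25 and 26.7 in control libraries (log2 -1.003, SE 0.09, edgeR adjusted p = 8.50e-05).

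Of 28 genes of glucose transport, glycolysis and hypoxia 6 were called lower and 0 higher, beside 19.1% and 18.1% of all genes. Their median was -0.29. With DESeq2 13 were called lower, with replicate as a block 21, without the pEx5 knockdown library of replicate 2 21 and without the pEx5 control library 2. Slc2a3, the neuronal glucose transporter, had 108, 177, 96.4 and 172 CPM in knockdown libraries and 284, 395 and 276 in control libraries (log2 -1.16), a call lost without the pEx5 control library (edgeR adjusted p = 0.0579). Of 48 genes of RNA decay 11 were called higher and 5 lower, beside 18.1% and 19.1% of all genes, and 3 and 3 without the pEx5 control library. Exosc2, an exosome subunit, had 60.4, 65.2, 54.1 and 54.3 CPM in knockdown and 99.6, 88.9 and 79.8 in control libraries (log2 -0.57, SE 0.08, edgeR adjusted p = 5.73e-04).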
